A study of Anguilla anguilla with 11 samples.

Results

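Transcripts of the cadherin and catenin family of the European eel (Anguilla anguilla) were described in its rete mirabile, the bundle of parallel arterial and venous capillaries that supplies the swimbladder. A transcript was a member when its description in the deposited table held the word cadherin or catenin, or when its name was cadh followed by digits, which gave 343 of 45974 predicted transcripts. The members carried 80 different names, and 10 of them had a description but no name. By role they were 69 classical or type II cadherins, 34 catenins, 58 FAT or dachsous cadherins, 26 seven-pass CELSR cadherins, 65 clustered and 39 non-clustered protocadherins, 28 cadherin-related transcripts, 12 atypical cadherins, 8 transcripts named after fly cadherins and 4 partners whose description mentions a catenin. The description was the best protein match of each predicted transcript, with a similarity between 0.421 and 1 as a fraction and a median of 0.647.

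The study compared 6 silver eels, the stage that migrates to the sea, with 5 yellow eels, the feeding stage. All 11 were wild animals, by the methods females from Lake Constance held in fresh water, and the rete of each was flushed with heparinized saline before RNA was taken. Age was not given, and each library came from a separate eel. Titles put the libraries into 2 sets, FG1907 (silver eels 4, 5 and 6 and yellow eels 4 and 5) and FG1835 (silver eels 1, 2 and 3 and yellow eels 1, 2 and 3), and the methods name paired-end and single-read sequencing without saying which libraries had which. The stage comparison had no term for the set unless said, so its p-values measure the spread between animals and the set difference together. For the transcript cadh5 (g17569) the SE of the stage difference was 0.43, and 0.21 with library set as a term.

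Cadherins are membrane proteins that join neighbouring cells by binding the same or a related cadherin on the opposite cell. In adherens junctions the inner end of a classical cadherin holds delta-catenin and beta-catenin, and alpha-catenin connects beta-catenin to actin filaments. Endothelial cells use VE-cadherin (cadh5) for this, and in mammals it controls how leaky a vessel is. Beta-catenin is also the carrier of the Wnt signal into the nucleus.

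Assigned counts summed to 9360429 to 12438185 in silver eels and 10555968 to 12096239 in yellow eels, and the members took 0.224% of all counts. Markers of vessel walls were present in every library. The 8 endothelial names other than cadh5 that the table holds summed to relative expression values of 29653 to 61232 in silver eels and 40661 to 52579 in yellow eels, although esam averaged 1.56 and no transcript is named ecsr. The 8 smooth muscle and pericyte names summed to 38354 to 86109 in silver eels and 52652 to 96608 in yellow eels, and 5 of 6 fibroblast names to 13840 to 47934 and 23483 to 30588. The 3 leukocyte names present reached 377 to 1711 in silver eels and 797 to 1457 in yellow eels, the 7 nerve and glia names 113 to 211 and 103 to 157, and the only red blood cell name present, b3at, 0 to 1.64 and 0 to 5.69. Of the epithelial list the keratins k1c18 and k2c8 made up nearly all of the sum of 19075 to 26017 in silver eels and 18229 to 25495 in yellow eels, while epcam averaged 3.23 and cld7 0.680. Silver eel 5 stood apart, with the lowest endothelial sum without cadh5 (29653) and the highest fibroblast (47934) and nerve and glia (211) sums. Its leukocyte sum (1711) was also the highest, but close to that of silver eel 1 (1683). Not every endothelial name was low in it, since vwf had 17029, within the 4950 to 18405 of all eels. Nor was every fibroblast or nerve and glia name highest in it. The fibroblast name pgfra had 188, against 286 in yellow eel 3, and the glial s100b 101, against 133 in silver eel 6. Among the smooth muscle and pericyte names it had the highest cnn1 (4007, against at most 900 in the other eels), desm (349, against at most 78.0) and lmod1 (2222). Its sum over that list (63819) lay within the range of the other eels. So did its acta (13342), myh11 (8144), tagl (34646), smtn (34.4) and pgfrb (1075). In bulk tissue, fewer cells of a type and less RNA per cell cannot be told apart.

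Relative expression values are counts divided by a size factor of each library, and they are not divided by transcript length, so that they were compared between eels and not between genes. Of the 343 members 70 had no read in any library, 94 had a read in every library and 50 had a mean above 50, which is the limit the study used. Only 90 members passed the filter on low counts and were tested. These were 16 classical or type II cadherins, 20 catenins, 19 FAT or dachsous cadherins, 5 CELSR cadherins, 15 clustered and 11 non-clustered protocadherins, 1 cadherin-related transcript and 3 partners. None of the 12 atypical and none of the 8 fly-named cadherins was tested. The 253 members left out are not shown to be equal between the stages.

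Between the stages no member passed the test. With edgeR's quasi-likelihood test, 0 of the 90 tested members had an adjusted p under 0.05, as did 0% of all 23981 tested transcripts. DESeq2 and limma also called 0 of the 90, against 24 (0.1%) and 0 of all tested transcripts. At an unadjusted p under 0.05 edgeR gave 2 members, against 2.15% of all tested transcripts, and at the study's level of 0.01 it gave 1 member, against 0.413%. The log2 differences of silver against yellow eels had a median of -0.09 over the members and of 0.00 over all tested transcripts, with 36 members above and 54 below 0.

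VE-cadherin was represented by 3 transcripts, all with a mean above 50. The transcript cadh5 (g17569) had a lowest value of 847, a median of 2146 and a highest value of 3554 in silver eels, compared with 2141, 4497, 3972, 1458 and 1455 in yellow eels. The ranges overlapped in part, with 2 yellow eels above all silver eels and 2 silver eels below all yellow eels, and in both stages the low values were those of the FG1907 libraries. On the log2 scale the difference was -0.32 ± 0.43 (SE), with -0.32 within FG1907 and -0.14 within FG1835.

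The transcript cadh5 (g3545) had 588, 1351 and 2851 as lowest, median and highest value in silver eels, compared with 2017, 2017, 1840, 452 and 606 in yellow eels. Again the ranges overlapped, with silver eel 1 above and yellow eel 4 below all others, and the log2 difference was 0.02 ± 0.46. It was 0.80 within FG1907 and -0.03 within FG1835. The transcript cadh5 (g38811) had 52.2, 104 and 157 in silver eels, compared with 94.3, 159, 101, 91.6 and 94.6 in yellow eels, with a log2 difference of -0.10 ± 0.33. The sum of the 3 averaged 3702 ± 1881 in silver eels and 4199 ± 2125 in yellow eels (SD, n = 6 and 5).

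Other adhesion cadherins were measured as well. Cadherin-11, known from mesenchymal cells of mammals, had 4 transcripts above the limit, and cad11 (g1783) had 655, 763 and 1321 in silver eels, compared with 682, 739, 759, 883 and 702 in yellow eels. The highest value was that of silver eel 5, and the other silver eels lay within or close to the yellow range, with a log2 difference of 0.15 ± 0.22, and of -0.03 without silver eel 5. N-cadherin, which connects endothelial cells with pericytes in mammals, was carried by cadh2 (g23458) with 157, 210 and 669 in silver eels, compared with 112, 106, 271, 163 and 171 in yellow eels. Its log2 difference of 0.82 ± 0.41 had the smallest unadjusted p of the members above the limit (0.0684, edgeR), and it was 0.37 without silver eel 5, whose value was the highest. Within FG1907 it was 1.29 and within FG1835 0.15.

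Cadherin-6, a type II cadherin first known from kidney, had in cadh6 (g6037) 32.4, 52.9 and 255 in silver eels, compared with 65.9, 174, 60.9, 219 and 307 in yellow eels. Silver eel 5 had 255, and the other 5 silver eels averaged 49.8 ± 13.2 (SD). Over all eels the log2 difference was -0.97 ± 0.58 (unadjusted p = 0.121, edgeR), and -1.74 without silver eel 5 (unadjusted p = 0.00248, adjusted p = 1.00). That omission gave the smallest p. Leaving out each eel in turn gave differences of -1.74 to -0.62 and unadjusted p-values of 0.00248 to 0.321 (edgeR), the highest without yellow eel 5. E-cadherin, the cadherin of epithelia, was carried by cadh1 (g3555) with 28.2, 41.8 and 172 in silver eels, compared with 31.7, 13.5, 29.1, 70.1 and 64.9 in yellow eels. The highest value was that of silver eel 5.

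**Figure D1:**
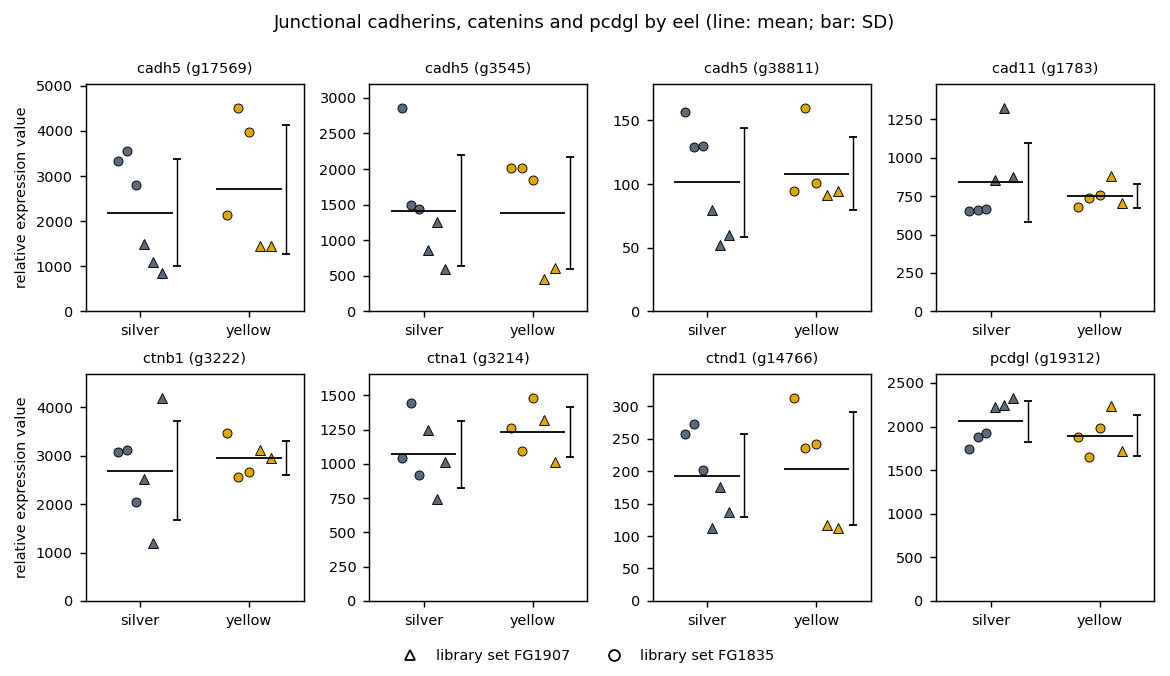
Relative expression value (counts over size factor, y axis from 0) of 8 cadherin and catenin transcripts in silver eels (left, n = 6) and yellow eels (right, n = 5). Points are eels, triangles FG1907 and circles FG1835 libraries, lines are means and bars SD. Silver and yellow eels overlapped in all 8, and for cadh5 and ctnd1 the triangles lay below most or all circles of both stages.

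The 34 catenin transcripts summed to 5740 ± 1272 in silver eels and 6466 ± 704 in yellow eels (SD, n = 6 and 5), and no tested one passed the stage test. Beta-catenin transcript ctnb1 (g3222) had 1207, 2797 and 4189 in silver eels, compared with 3460, 2558, 2674, 3109 and 2955 in yellow eels. The silver eels spread to both sides of the yellow range, since silver eel 5 had the lowest and silver eel 6 the highest value of all 11. The log2 difference was -0.14 ± 0.27, and 0.00 without silver eel 5. A further beta-catenin transcript, ctnb1 (g27776), had 546, 645 and 707 in silver eels, compared with 936, 826, 953, 475 and 628 in yellow eels, with a log2 difference of -0.29 ± 0.21. In that transcript the 3 FG1835 yellow eels lay above all silver eels, and the 2 FG1907 yellow eels did not.

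Alpha-catenin, which binds the junction to actin, had in ctna1 (g3214) 745, 1030 and 1446 in silver eels, compared with 1262, 1092, 1480, 1321 and 1017 in yellow eels. These ranges overlapped, with a log2 difference of -0.22 ± 0.19. The low ctna1 (g27023) had 40.7, 55.4 and 60.7 in silver eels, compared with 79.7, 67.4, 103, 48.6 and 67.7 in yellow eels, and 4 of the 5 yellow eels lay above all silver eels. Its log2 difference was -0.46 ± 0.26 (unadjusted p = 0.107, edgeR). Delta-catenin, which holds cadherins at the membrane, was carried by ctnd1 (g14766) with 112, 189 and 273 in silver eels, compared with 312, 235, 242, 116 and 112 in yellow eels, and a log2 difference of -0.09 ± 0.33. The neural form of alpha-catenin, ctna2 (g14874), had 178, 218 and 305 in silver eels, compared with 139, 118, 173, 303 and 249 in yellow eels.

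Nearly all catenin transcripts had a log2 difference below 0, namely 19 of 20, with a median of -0.21, while 11792 of all 23981 tested transcripts had one below 0. None of the 20 reached an unadjusted p under 0.05. Transcripts that share a name may be parts of a single gene, so these are not 20 separate readings. The count was 19 of 21 within FG1835, 9 of 20 within FG1907 and 16 of 20 without silver eel 5. It was 14 of 20 with library set as a term and 14 of 20 without yellow eel 3.

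Plakoglobin (plak) replaces beta-catenin in some junctions, and its description names neither word, so it is a partner here. It averaged 1966 ± 324 in silver eels and 1912 ± 232 in yellow eels (SD, n = 6 and 5), with a log2 difference of 0.03 ± 0.18. The partner list held proteins of the junction plaque and of the Wnt branch of beta-catenin, of which 48 of 51 names were in the table, with 107 tested transcripts. The most reads went to ptprb (g26483), the phosphatase VE-PTP that associates with VE-cadherin in mammals, with 8750 ± 3252 in silver eels and 8436 ± 2597 in yellow eels. The scaffold iqga1 (g14187) had 6362 ± 2082 in silver eels and 6241 ± 2309 in yellow eels. None of the 107 was called by edgeR, 3 had an unadjusted p under 0.05 and 1 had one under 0.01, against 2.15% and 0.413% of all tested transcripts, so that these counts lay near the background. That was rock2 (g11612), a kinase that acts on the actin cytoskeleton, with a mean of 43.9 ± 58.0 in silver eels and 5.61 ± 3.44 in yellow eels. Its silver values ran from 2.35 to 158 and its yellow values from 0.927 to 10.1, so that they overlapped. The rock2 transcript with the most reads, rock2 (g24674), averaged 301 ± 198 in silver eels and 267 ± 83.0 in yellow eels. Its log2 difference was 0.17 ± 0.43. The other tested rock2 transcripts had 0.41, 0.46, -0.20 and 0.35, and of all these only rock2 (g11612) had an unadjusted p under 0.05 (edgeR).

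**Figure D2:**
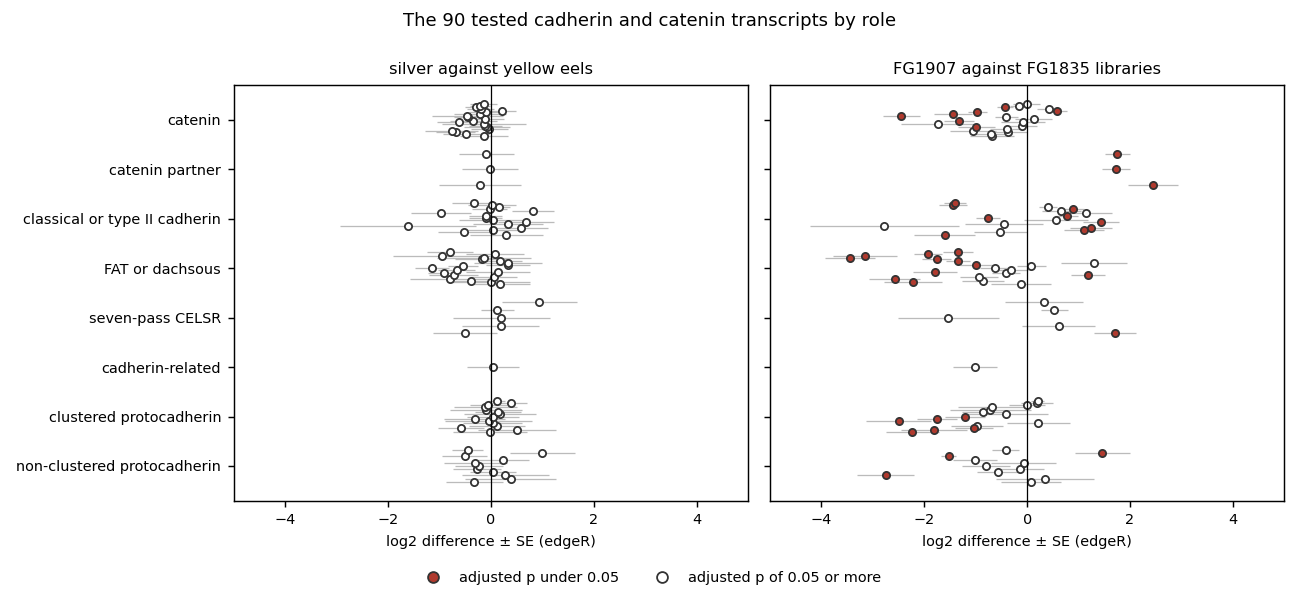
Log2 difference with its SE (x axis) of the 90 tested members, in rows by role, for silver against yellow eels (left) and FG1907 against FG1835 libraries (right). Filled points had an adjusted p under 0.05 (edgeR). On the left 0 points are filled, on the right 40, of which 28 lie below 0.

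FAT cadherins are very large cadherins that bind dachsous cadherins and act in cell polarity and growth control. The only 2 members with an unadjusted p under 0.05 between the stages were of this class, and both were transcripts of fat1. With library set as a term there were 4, against 4.06% of all tested transcripts, namely these and fat1 (g36740) and the protocadherin pcd18 (g13838), with unadjusted p-values of 0.0239 and 0.0307 and adjusted p-values of 1.00 (edgeR). Of 14 transcripts named fat1, 9 were tested and 3 had a mean above 50. The transcripts fat1 (g37021) and fat1 (g34458) have means under 50, and both were singled out after their values were seen.

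The transcript fat1 (g37021) had 23.2, 29.4 and 33.4 in silver eels, compared with 67.5, 86.0, 92.7, 39.6 and 32.5 in yellow eels. Only yellow eel 5 came within the silver range. Its log2 difference was -1.15 ± 0.33 (unadjusted p = 0.00418, adjusted p = 1.00, edgeR), with -1.43 within FG1835 and -0.38 within FG1907. Leaving out each eel in turn gave unadjusted p-values of 0.00123 to 0.0154, the highest without yellow eel 3. The interaction of stage and library set had an unadjusted p of 0.0494 and an adjusted p of 0.920 (edgeR).

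The transcript fat1 (g34458) had 15.3, 20.7 and 25.0 in silver eels, compared with 49.6, 37.9, 50.9, 30.5 and 26.0 in yellow eels. Every silver eel lay below every yellow eel, by a narrow margin. It was the only one of the 90 tested members without overlap between the stages, against 0.238% of all tested transcripts. The log2 difference was -0.92 ± 0.30 (unadjusted p = 0.010, edgeR), with -1.09 within FG1835 and -0.49 within FG1907.

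Above the limit, fat1 (g30086) had 32.4, 41.9 and 82.4 in silver eels, compared with 71.6, 63.2, 74.5, 73.5 and 72.3 in yellow eels. Here silver eel 5 had the highest value of all, and the other 5 silver eels lay below the yellow eels. Its log2 difference was -0.54 ± 0.29 (unadjusted p = 0.0877, edgeR) and -0.76 without silver eel 5. Leaving out each eel in turn gave -0.76 to -0.45, with unadjusted p-values of 0.0132 to 0.159 (edgeR), the highest without silver eel 4. The transcript fat1 (g19348) had 206, 549 and 825 in silver eels, compared with 1225, 1049, 1487, 504 and 277 in yellow eels, with a log2 difference of -0.79 ± 0.45. Within FG1835 it was -0.82 and within FG1907 -0.15.

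All 9 tested fat1 transcripts had a log2 difference below 0, with a median of -0.79, and 1 of them had an unadjusted p under 0.01. Since they may be parts of a single gene they are not independent readings. The sum over the 14 fat1 transcripts was 348, 885 and 1401 as lowest, median and highest value in silver eels, compared with 2024, 1775, 2566, 792 and 543 in yellow eels. With the transcripts of each name summed before the fit, the log2 difference of fat1 was -0.83 ± 0.47 (unadjusted p = 0.0964, adjusted p = 1.00, edgeR). Within FG1835, 9 of 9 transcripts were below 0, and within FG1907 6 of 8 that were tested there.

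**Figure D3:**
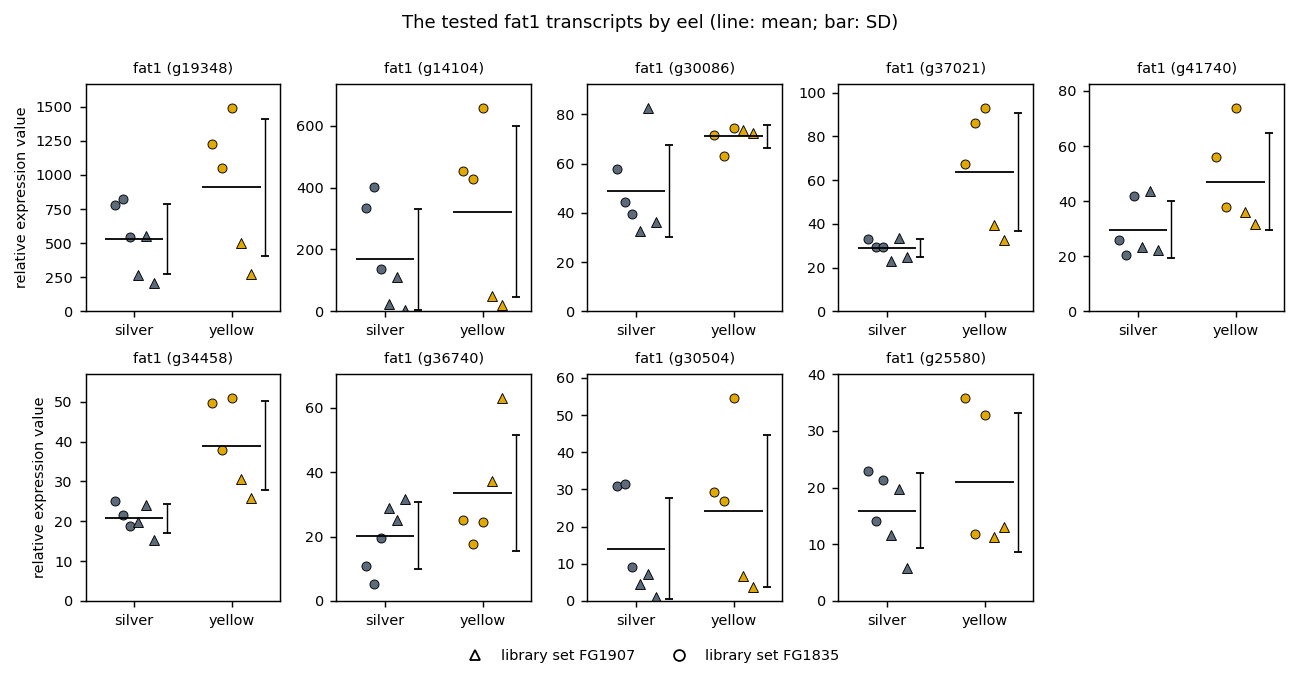
Relative expression value (counts over size factor, y axis from 0) of the 9 tested fat1 transcripts in silver eels (left, n = 6) and yellow eels (right, n = 5), with eels as triangles (FG1907) or circles (FG1835), means as lines and SD as bars. In fat1 (g34458) all silver eels (15.3 to 25.0) lie below the yellow eels (26.0 to 50.9), and in the other 8 the stages overlap.

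Unlike fat1, the other tested names of the class did not have all log2 differences below 0. Of the 4 tested fat4 transcripts 2 had log2 differences above and 2 below 0, with a median of -0.03. The sum over fat4 averaged 904 ± 538 in silver eels and 893 ± 607 in yellow eels (SD, n = 6 and 5). Dachsous 1 (pcd16), which binds fat4 in mammals, summed to 217 ± 122 in silver eels and 182 ± 53.9 in yellow eels, and all 5 tested pcd16 transcripts had a log2 difference above 0, with a median of 0.13 and an unadjusted p above 0.05. The transcript fat3 (g442) had 13.1, 61.3 and 242 in silver eels, compared with 166, 59.0, 26.4, 116 and 59.4 in yellow eels. In fat3 the eels of each stage differed more among themselves than the stages did.

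CELSR cadherins carry 7 membrane passes and act in planar cell polarity. Of 26 transcripts 5 were tested, and only celr1 (g347) had a mean above 50. It had 40.0, 120 and 391 in silver eels, compared with 19.5, 106, 155, 7.92 and 96.4 in yellow eels. The highest value was again that of silver eel 5.

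Protocadherins are single-pass cadherins without a catenin-binding end, and they are best known from the nervous system, where the clustered genes give neurons individual surfaces. The nerve and glia list summed to at most 211 in any library, and its part in the protocadherin values was not tested. The clustered transcript pcdgl (g19312), described as protocadherin gamma-C4, had 1747, 2072 and 2326 in silver eels, compared with 1884, 1650, 1983, 2238 and 1718 in yellow eels. It was the most even of the 50 members above the limit, as its highest value was 1.41 times its lowest and its SD over all eels was 0.120 of its mean, against a median of 0.357 for all transcripts above the limit and of 0.525 for those 50 members. Its log2 difference was 0.11 ± 0.17.

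The clustered transcript pcda4 (g20860), protocadherin alpha-4, had 815, 1357 and 2718 in silver eels, compared with 1353, 1221, 1377, 1299 and 605 in yellow eels. Silver eel 5 was highest and yellow eel 5 lowest, and both are FG1907 libraries. It differed by 0.40 ± 0.31 on the log2 scale over all eels, 1.04 within FG1907 and -0.17 within FG1835. Protocadherin alpha-C2 (pcdc2) had 4 transcripts above the limit, and the one with the most reads, pcdc2 (g22920), had 97.0, 322 and 459 in silver eels, compared with 129, 346, 385, 388 and 349 in yellow eels. In that transcript silver eel 5 had the lowest value, whereas in pcdc2 (g24731) it had the highest, 457, against 324 in the next eel. The transcript pcdg2 (g40813) averaged 100 ± 39.3 in silver eels and 90.2 ± 56.4 in yellow eels.

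Among the non-clustered protocadherins, pcd18 (g19268) had 439, 1201 and 1503 in silver eels, compared with 2128, 1396, 1339, 1544 and 1119 in yellow eels. Silver eel 5 had the lowest value, and the log2 difference was -0.45 ± 0.30 over all eels and -0.29 without it. The transcript pcd10 (g16282) had 290, 481 and 3740 in silver eels, compared with 355, 378, 627, 729 and 509 in yellow eels. Its highest value, in silver eel 5, was 4.42 times that of the next eel. On the log2 scale it differed by 1.00 ± 0.63 over all eels and -0.11 without silver eel 5.

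Protocadherin-12, which is found in endothelial cells of mammals, was carried by pcd12 (g25249) with 84.5, 427 and 793 in silver eels, compared with 241, 384, 415, 438 and 196 in yellow eels. The yellow eels lay inside the silver range. Protocadherin-17 (pcd17, g4087) had 79.1, 160 and 737 in silver eels, compared with 106, 271, 298, 684 and 133 in yellow eels, with 1 eel far above the rest of its stage in each. The transcript pcdh1 (g23881) averaged 89.9 ± 59.5 in silver eels and 108 ± 44.4 in yellow eels, and pcd19 (g15670) averaged 95.5 ± 63.4 in silver eels and 93.0 ± 33.3 in yellow eels.

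**Figure D4:**
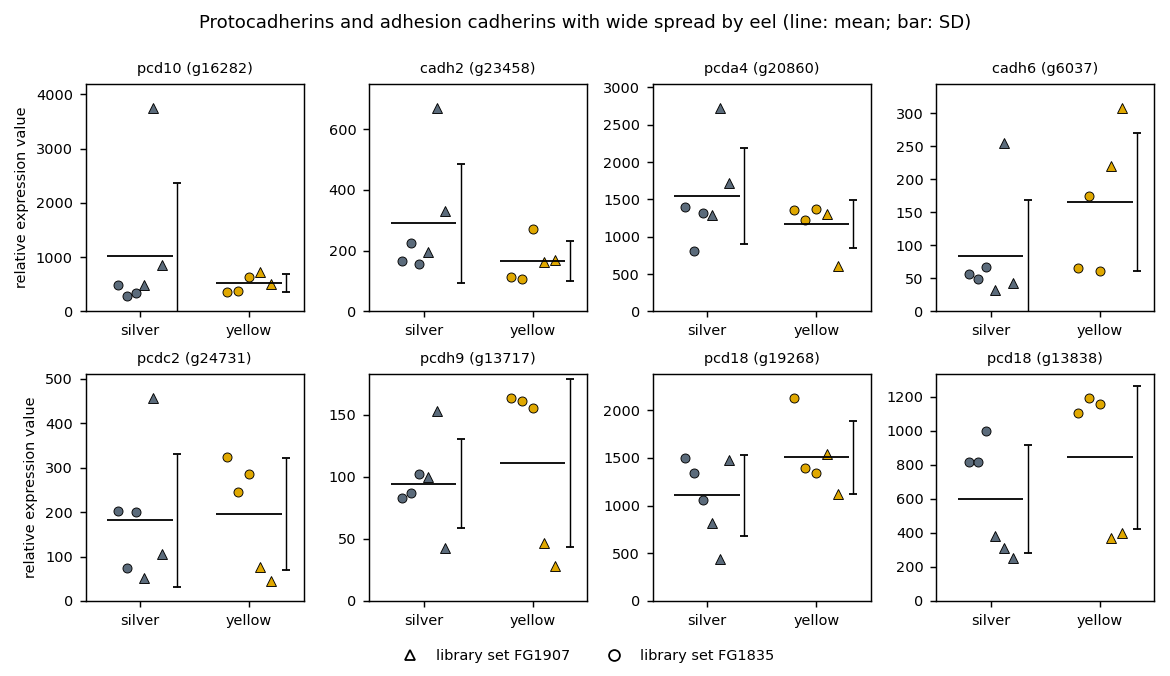
Relative expression value (counts over size factor, y axis from 0) of 8 transcripts with wide spread, 6 protocadherins beside cadh2 and cadh6, in silver eels (left, n = 6) and yellow eels (right, n = 5), with eels as triangles (FG1907) or circles (FG1835), means as lines and SD as bars. Silver eel 5 is the single high triangle of pcd10 (3740), cadh2 (669) and cadh6 (255) among the silver eels.

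Silver eel 5 and yellow eel 3 were most often the highest of the 11 eels among the 50 members above the limit. Silver eel 5 was highest in 12 members, or 24%, against 11.4% of all transcripts above the limit, and lowest in 8, or 16%, against 16.3%. Yellow eel 3 was highest in 10, or 20%, against 5.96%, and lowest in 1. The values of silver eel 5 exceeded those of the next eel 4.42-fold for pcd10 (g16282), 2.28-fold for celr1 (g347), 2.22-fold for cadh1 (g3555), 2.13-fold for pcd10 (g11945) and 2.03-fold for cadh2 (g23458). The same library had the highest fibroblast (47934) and nerve and glia (211) sums and the lowest endothelial sum. It also had the highest leukocyte sum (1711, beside 1683 in silver eel 1) and the highest cnn1 (4007) and desm (349). Its smooth muscle and pericyte sum (63819) lay within the range of the other eels. The part of these markers in the values was not tested.

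Whether the stage difference itself differed between the library sets was tested as an interaction. In edgeR 0 of the 90 members were called, as were 0% of all tested transcripts, and 10 had an unadjusted p under 0.05, against 4.94%. Of these 10, 6 were clustered protocadherins, namely pcda4 (g20860), pcdg2 (g40813), pcdg4 (g26364) and pcdc2 (g24731, g37488 and g36800). In pcda4 and the 3 pcdc2 transcripts the highest value of all eels was that of silver eel 5. In pcdg2 silver eel 5 had 162, against 165 in the highest eel. The 3 pcdc2 transcripts share a name and may be parts of a single gene, so they are not separate readings. The others were fat1 (g37021), cadh7 (g3241), cad12 (g4297) and pcdh9. The smallest p belonged to pcdh9 (g13717), with 42.3, 93.2 and 153 in silver eels, compared with 163, 161, 155, 46.4 and 27.8 in yellow eels (unadjusted p = 0.0036, adjusted p = 0.920). The silver eels of FG1835 lay below its yellow eels, with a log2 difference of -0.82, and within FG1907 the difference was 1.45. How many of all tested transcripts were so separated within FG1835 was not counted.

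The library sets differed far more than the stages. With stage as a term, 40 of the 90 tested members (44.4%) had an adjusted p under 0.05 between FG1907 and FG1835 in edgeR, against 38.6% of all tested transcripts. Of these 12 were higher and 28 lower in FG1907, against 19.5% and 19% of all tested transcripts. The log2 differences of the members had a median of -0.48, and those of all tested transcripts one of 0.03. The sets did not overlap in 23 of the 90 members, 3 higher and 20 lower in FG1907. Of all 23981 tested transcripts 21.1% did not overlap, 2402 of them higher and 2663 lower in FG1907. The sets differ in title only as far as the labels say, so that animals, preparation and sequencing cannot be told apart.

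All 3 cadh5 transcripts were lower in FG1907. The transcript cadh5 (g17569) had 1497, 1092, 847, 1458 and 1455 in FG1907, against a lowest value of 2141, a median of 3439 and a highest value of 4497 in FG1835. The sets did not overlap, and the log2 difference was -1.40 ± 0.21 (adjusted p = 0.000604, edgeR), with -1.49 in silver and -1.28 in yellow eels. For cadh5 (g3545) it was -1.44 ± 0.27 (adjusted p = 0.00206), again with no overlap, and for cadh5 (g38811) -0.77 ± 0.23 (adjusted p = 0.0207), with 1 FG1907 eel inside the FG1835 range. The call for cadh5 (g38811) was lost without silver eel 6 or without yellow eel 2, where the adjusted p was 0.0533 and 0.0527. The 8 other endothelial names of the marker list summed to 29653 to 61232 in FG1907 and 40661 to 57670 in FG1835. Single names of this list did not all follow the sum. Lower at both ends of the range in FG1907 were tie1, tie2, vgfr2 (2552 to 6529, against 6463 to 8983) and vgfr3 (507 to 1518, against 1260 to 2302). The highest cld5 (22739, against at most 15679 in FG1835), vwf and peca1 values were in FG1907, and so were their lowest values. The 8 smooth muscle and pericyte names summed to 38354 to 96608 (median 52652) in FG1907 and 63213 to 86109 (median 76636) in FG1835. Single names of the smooth muscle and pericyte list went both ways. Both ends of the range were lower in FG1907 for the pericyte receptor pgfrb (361 to 1075, against 828 to 1557 in FG1835) and smtn (17.6 to 34.4, against 49.7 to 75.6). The same held for myh11 (3099 to 12362, against 10569 to 19715) and tagl (28782 to 48480, against 30240 to 49247). In contrast the highest acta value (33381, yellow eel 4) and the highest cnn1 (4007), desm (349) and lmod1 (2222) values, all 3 of silver eel 5, were in FG1907. The part of these markers in the differences between the sets was not tested.

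All 4 tested fat4 transcripts were lower in FG1907 too. The transcript fat4 (g18138) had 16.2, 85.5, 28.2, 7.92 and 18.5 in FG1907, against 236, 306 and 380 as lowest, median and highest value in FG1835. The gap between the sets was wide, and the log2 difference was -3.45 ± 0.49 (adjusted p = 0.000414, edgeR). It was -1.94 ± 0.27 for fat4 (g21150) and -1.76 ± 0.28 for fat4 (g22363), with adjusted p-values of 0.000408 and 0.000835. Summed by name, fat4 had a log2 difference of -2.10 and fat1 one of -1.44. The fat1 transcripts did not all go the same way, since of 9 tested 3 were called lower and 1 higher in FG1907. The higher one was fat1 (g36740), with 1.18 ± 0.33 (adjusted p = 0.0149, edgeR).

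The smallest p between the sets belonged to pcd18 (g13838), with 385, 310, 254, 371 and 399 in FG1907, against 819, 1052 and 1193 in FG1835. The log2 difference was -1.53 ± 0.15 (adjusted p = 8.82e-05, edgeR). Its namesake pcd18 (g19268) had 439 to 1544 in FG1907, against 1057 to 2128 in FG1835, and was not called, with -0.42 ± 0.27. Between the stages, pcd18 (g13838) had 254, 602 and 999 in silver eels, compared with 1104, 1193, 1155, 371 and 399 in yellow eels. Within FG1835 all 3 silver eels lay below all 3 yellow eels. The share of all tested transcripts so separated there was not counted, so nothing is read from it.

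Namesakes among the catenins parted between the sets as well. The transcript ctna1 (g5991) had 24.3, 49.0, 17.6, 24.9 and 24.1 in FG1907, against 88.6, 162 and 228 in FG1835, a log2 difference of -2.45 ± 0.35 (adjusted p = 0.00047, edgeR). In contrast ctna1 (g3214) differed by -0.17 ± 0.17 and was not called. Likewise ctnb1 (g10432) was called with -1.44, while ctnb1 (g3222) was not, with -0.01 ± 0.26. Also called was ctnb1 (g27776), with -0.43 ± 0.16 (adjusted p = 0.0471, edgeR) and no overlap between the sets. The transcript ctnd1 (g14766) was called with -0.97 ± 0.19 (adjusted p = 0.00245, edgeR). Whether such namesakes are separate genes or parts of a single one cannot be read from the table.

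Members higher in FG1907 were fewer. The transcripts ctbl1 (g10333) and ctbl1 (g25111), whose protein belongs to the splicing machinery and resembles beta-catenin only in its repeats, had log2 differences of 1.75 ± 0.24 and 1.72 ± 0.27 (adjusted p = 0.000399 and 0.000771, edgeR). The transcript ctbl1 (g10333) had 382, 409, 968, 690 and 811 in FG1907, against 146, 192 and 222 in FG1835. Of the classical or type II cadherins 5 were called higher. Above the limit these were cad11 (g4960), cad11 (g30106) and cadh1 (g3555), with log2 differences of 0.89, 0.76 and 1.43. Below it were cadh2 (g43131) with 1.23 and cadh8 (g14639) with 1.11. The 1 catenin called higher was ctna2 (g14874), with 0.59 ± 0.20 (adjusted p = 0.0332, edgeR). The epithelial keratin k1c18 had 15785 to 17287 in FG1907 and 9673 to 14822 in FG1835, without overlap, while k2c8 had 6633 to 9086 in FG1907 and 7873 to 11850 in FG1835, and their part in the cadh1 values was not tested. The cad11 transcript with the most reads, cad11 (g1783), had 0.40 ± 0.17 and was not called.

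By role, the called share between the sets stood against 38.6% of all tested transcripts. It was 11 of 19 (57.9%) for the FAT or dachsous class (10 lower) and 9 of 16 (56.25%) for classical or type II cadherins (4 lower). Nearer to that share were 7 of 20 (35%) for catenins (6 lower) and 6 of 15 (40%) for clustered protocadherins (6 lower). For non-clustered protocadherins it was 3 of 11 (27.3%, 2 lower). Transcripts that share a name may be parts of a single gene, so these counts do not hold separate readings. With namesakes summed, 16 of 43 members (37.2%) were called, against 36.9% of all tested features. Of the 107 tested partners 41 (38.3%) were called, so that this count lay at the share of all tested transcripts. Of these 4 were higher and 37 lower in FG1907, against 19.5% and 19% of all tested transcripts. In yellow eels alone 38 of 99 tested members (38.4%) were called, against 30.2% of all transcripts tested there. In silver eels alone 2 of 85 (2.35%) were called, against 1.82%, and these were cadh5 (g17569) and pcd18 (g13838).

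**Figure D5:**
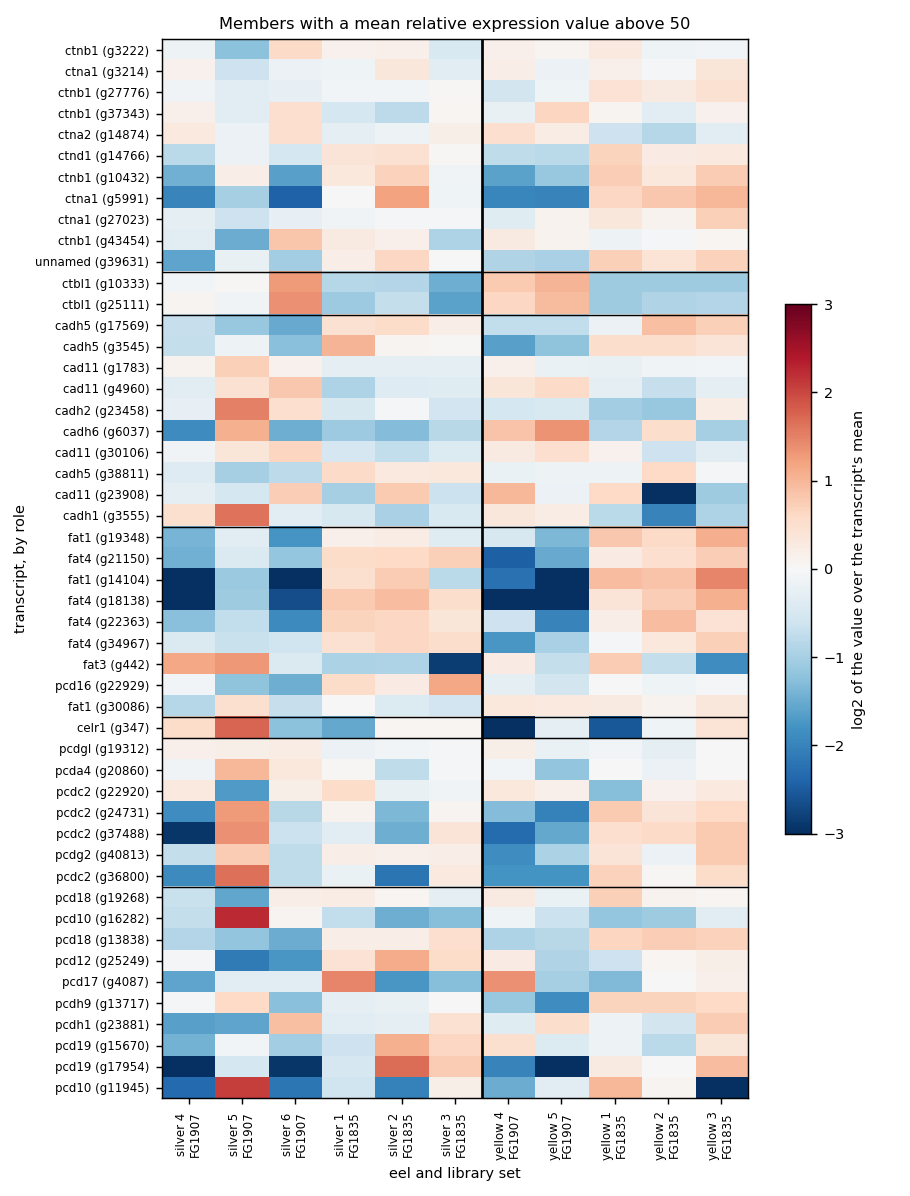
Log2 of the relative expression value plus 0.5 over the transcript's mean plus 0.5 (colour, which stops at 3 to either side) for the 50 members with a mean above 50, in rows by role, and the 11 eels in columns, silver eels left of the thick line and yellow eels right of it, each with FG1907 before FG1835. The FG1907 columns are blue for fat4 and pcd18 (g13838) in both stages, and silver eel 5 is red for pcd10, cadh2, cadh1 and celr1.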

How the data were processed

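The table deposited by the authors holds raw counts of fragments per predicted transcript of the draft eel genome. By the methods and the submitters' processing notes, stranded poly-A libraries were aligned with TopHat2 2.0.13, filtered with SAMtools 1.2 and counted with HTSeq 0.6.1p1. The similarity to the best protein match is a fraction as deposited. The authors' own base means, fold changes and p-values were not used. The column FG1935_03 was read as library FG1835_03. The protocol label names gas gland tissue, the tissue label the rete mirabile, which was followed.

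Relative expression values are counts over median-of-ratios size factors. Members were tested within the whole table with edgeR 4.0.16 in R 4.3.3 (TMM, filterByExpr, quasi-likelihood test, Benjamini-Hochberg adjustment over 23981 transcripts, threshold 0.05), by stage, by library set with stage as a term, and for their interaction. DESeq2 1.42.0, limma 3.58.1, other filters and scalings, each set or stage alone, summed namesakes and leaving out each library were alternatives. The scripts were tested on simulated data, with changes planted only in more abundant transcripts and larger than most stage differences given here. That test does not cover smaller changes or transcripts with few reads. Figures were drawn with matplotlib 3.10.9.

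The members and lists were chosen with earlier results of these data known. Named were the 8 members with the highest mean, the 8 with the smallest p by stage and by library set among those with a mean above 50, the cadh5 transcripts above that mean, and the highest transcript of ctnb1, ctna1, ctnd1 and plak. Levels are given for every name with a mean above 50. Partners were named if they were the 2 highest or had an unadjusted p under 0.01. Further members named, and the other rock2 transcripts, were chosen after their values were seen.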

Additional observations from a re-analysis of the deposited data

Results flagged for a closer look

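Among 27 named members, the highest or lowest eel of a stage was tested for its gap to the next eel, in 54 groups of 5 or 6 eels. In 9 groups the gap was large against the range of the group, while chance gives about 1 in 20 for independent groups. These groups share eels, hold namesakes and were in part named for their values, so that nothing is read from their number. Silver eel 5 accounted for 4 of them, always as the highest silver eel, with 3740 for pcd10 (g16282), 669 for cadh2 (g23458), 255 for cadh6 (g6037) and 1321 for cad11 (g1783). Silver eel 6 was the highest silver eel for both ctbl1 transcripts, with 968 for g10333 and 437 for g25111. Among the yellow eels, eel 5 was low for pcda4 (g20860) with 605, and eel 2 was low for fat1 (g30086) with 63.2 and high for cadh5 (g38811) with 159.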

How the results depend on the processing

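No tested member was called between the stages under any alternative run, and the median log2 difference over the members lay between -0.15 and 0.05. Among all tested transcripts 24 (0.1%) were called with DESeq2 and 1 without silver eel 6. With the set term and without silver eel 5 there were 2. The number of members with an unadjusted p under 0.01, 1 of 90 as reported, was 4 of 273 with no filter and 2 of 90 with DESeq2. It was 2 of 90 with library set as a term, 6 of 96 in FG1835 alone and 0 of 83 in FG1907 alone. With a mean above 50 as the filter it was 0 of 50, and with namesakes summed 0 of 43. The share of all tested transcripts at that level, 0.413% as reported, was 0.58% with no filter, 0.863% with DESeq2 and 0.817% with the set term. It was 1.82% in FG1835 alone, 0.519% in FG1907 alone, 0.464% with the mean filter and 0.445% with namesakes summed. Leaving out each library gave 0 to 2 members, with 0 without yellow eel 2 or yellow eel 3, against 0.355% to 0.616% of all tested transcripts. Library set as a term without silver eel 5, an alternative chosen after seeing the data, gave 5, against 1.6% of all tested transcripts. Between the library sets the 40 calls (44.4%, against 38.6% of all tested transcripts) became 22 with the mean filter (44%, against 41.4%). With namesakes summed they became 16 (37.2%, against 36.9%), and both of these runs test fewer features. In silver eels alone 2 were called (2.35%, against 1.82%), where the cause was not tested. With each library left out there were 28 to 49 (32.9% to 55.7%, against 29.1% to 47.9%). Scaling by library totals alone gave 37 calls (41.1%, against 36.7%), with 8 higher, and moved the median of all transcripts to -0.10.

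Of 20 named stage differences 10 changed sign under some alternative, and none was called. In FG1835 alone they were -0.0004 for pcdgl, -0.030 for cadh5 (g3545), -0.17 for pcda4, -0.15 for cad11 (g1783), -0.31 for pcd10 (g16282) and 0.22 for cadh5 (g38811). In FG1907 alone they were 0.11 for ctnb1 (g27776), 0.33 for ctnd1 and 1.45 for pcdh9, and with library set as a term 0.064 for ctnd1 and 0.081 for pcdh9. The difference of cadh5 (g3545) was -0.0041 with the mean filter and -0.040 with library totals. With the set term and without silver eel 5 those of cad11 (g1783) and pcd10 (g16282) were -0.042 and -0.15. Leaving out each library gave -0.31 to 0.0041 for ctnb1 (g3222), -0.31 to 0.20 for cadh5 (g3545), -0.031 to 0.22 for cad11 (g1783), -0.11 to 1.19 for pcd10 (g16282), -0.27 to 0.074 for cadh5 (g38811) and -0.24 to 0.12 for ctnd1. Of 17 named differences between the library sets 2 changed sign, neither of them called. That of ctnb1 (g3222) was 0.0008 with no filter, 0.069 in yellow eels alone and -0.23 to 0.17 with each library left out, and that of pcda4 was -0.47 in yellow eels alone and -0.055 to 0.48 with each library left out. The cause of these reversals was not tested.

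No paired analysis was possible because the replicate numbers are only an order. The 253 members that were too low to be tested, and the unknown transcript lengths, limit what the table shows of the family.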
